A study of Mus musculus with 64 samples.

Results

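The Schlafen genes *Slfn1*, *Slfn2*, *Slfn3*, *Slfn4*, *Slfn5*, *Slfn8* and *Slfn9* were followed in retinal microglia after intravitreal (IVT) AAV2, 7 genes of the 25239 in the deposited count tables. The family was selected on the data themselves. *Slfn1* had stood out at day 28 in 3-month-old mice, where its change from naive differed between the sexes. Comparisons that turn on the naive and day 28 levels of that age are therefore given here as descriptions without a test. Day 12 against naive was tested at 3 months too, with the same naive libraries, so those tests are not independent of the selection. Microglia came from mice of genotype *Cx3cr1CreER:R26-tdTomato*+/- (C57BL/6J background), whose red label depends on a Cre driven from the *Cx3cr1* locus, a gene of microglia and of other mononuclear phagocytes. All mice had received tamoxifen eye drops, which switch the label on. Retinas were taken from naive mice, or 12 or 28 days after AAV2 null (a vector with no transgene that carries a TLR9 inhibitor sequence) at 1e+10 genome copies per eye, from both sexes at 3, 9 and 18 months of age. Each library was made from 600 sorted microglia of a single eye, and some mice were littermates. The 62 libraries used fall into 18 groups of age, sex and day. In the order naive, day 12 and day 28, females of 3 months gave 4, 4 and 4 libraries and males 3, 4 and 3. At 9 months it was 3, 3 and 4 for females and 2, 4 and 3 for males, and at 18 months 3, 4 and 3 for females and 4, 3 and 4 for males. Libraries from eyes injected with buffer were not analysed here, so the injection itself and the vector cannot be told apart.

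Schlafen proteins are cytosolic or nuclear proteins that act on RNA and on the growth of immune cells, and many of their genes are switched on by interferon. *Slfn1* and *Slfn2* encode short members. *Slfn1* was first described as a brake on T cell growth, and *Slfn2* protects transfer RNA from cleavage and keeps T cells and monocytes quiescent. *Slfn3* and *Slfn4* encode members of intermediate length, *Slfn4* being known from interferon-exposed myeloid cells. *Slfn5*, *Slfn8* and *Slfn9* encode long members that carry a helicase-like region. Microglia, the resident macrophages of the retina, are known to turn on interferon-regulated genes during viral exposure.

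The 7 genes lie in one cluster on chromosome 11 of GRCm38, from 82951349 (start of *Slfn5*) to 83215154 (end of *Slfn3*). *Slfn5*, *Slfn2*, *Slfn1*, *Slfn4* and *Slfn3* are read from the plus strand, and *Slfn9* and *Slfn8* from the minus strand. *Slfn1* spans 83116849 to 83122670. All 7 are annotated as protein coding in GENCODE.

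**Figure D1:**
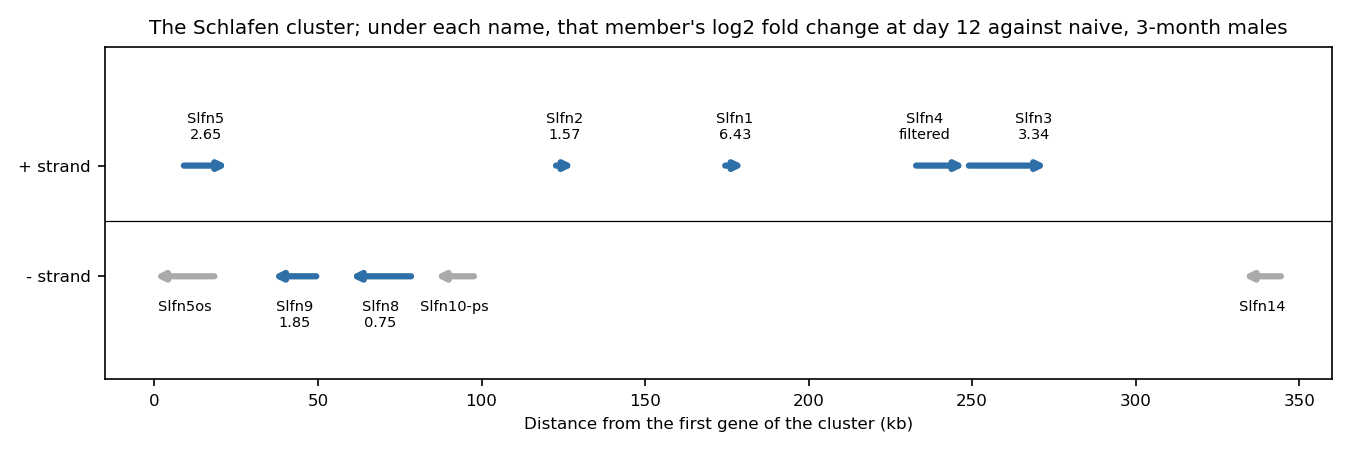
Map of the Schlafen cluster by distance from the start of the first gene drawn, *Slfn5os* (x axis, kb), and strand (y axis), with members as blue arrows and neighbouring genes in grey. The number under each member's name is its log2 fold change at day 12 against naive in 3-month males. *Slfn1* at 6.43 sits between *Slfn2* at 1.57 and *Slfn4*, which was removed as too low to test.

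The stretch from 250 bases before to 50 after each start site was read from RefSeq promoters (GRCm38.p6), in which all 7 members were found. It was searched on both strands for the core of the interferon-stimulated response element, written as GAAA, any 2 bases and GAAA again, and for the gamma-activated site TTCNNNGAA. The core was present in 3 members, *Slfn5*, *Slfn8* and *Slfn9*, and in 3.44% of all 32851 promoters of this length. The gamma-activated site was in none of the 7, against 8.30% of all promoters. Such a match is a description of letters and not of binding. The promoters of the 3 genes with a match are shown with the match in capitals, followed by that of *Slfn1*, which held neither motif in this window. Their coordinates are chr11:82951852-82952151 on the plus strand for *Slfn5*, chr11:83020761-83021060 on the minus strand for *Slfn8*, chr11:82991781-82992080 on the minus strand for *Slfn9* and chr11:83116570-83116869 on the plus strand for *Slfn1*.
Slfn5: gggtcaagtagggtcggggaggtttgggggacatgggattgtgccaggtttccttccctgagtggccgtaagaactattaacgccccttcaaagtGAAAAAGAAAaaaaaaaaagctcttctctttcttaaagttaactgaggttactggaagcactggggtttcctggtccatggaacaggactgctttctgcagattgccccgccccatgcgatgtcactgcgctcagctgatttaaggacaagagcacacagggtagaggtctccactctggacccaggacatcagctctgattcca
Slfn8: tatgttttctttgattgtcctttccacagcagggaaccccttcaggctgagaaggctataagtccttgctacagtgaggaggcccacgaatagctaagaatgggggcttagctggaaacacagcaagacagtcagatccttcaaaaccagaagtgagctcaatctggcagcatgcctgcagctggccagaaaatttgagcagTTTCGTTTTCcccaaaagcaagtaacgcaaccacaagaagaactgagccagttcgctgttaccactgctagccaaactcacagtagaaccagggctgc
Slfn9: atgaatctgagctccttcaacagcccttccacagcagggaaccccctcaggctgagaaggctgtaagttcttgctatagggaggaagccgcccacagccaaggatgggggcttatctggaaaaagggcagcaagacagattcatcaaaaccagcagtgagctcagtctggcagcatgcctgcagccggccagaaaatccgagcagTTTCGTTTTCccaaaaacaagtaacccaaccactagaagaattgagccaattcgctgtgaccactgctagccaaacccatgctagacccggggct
Slfn1: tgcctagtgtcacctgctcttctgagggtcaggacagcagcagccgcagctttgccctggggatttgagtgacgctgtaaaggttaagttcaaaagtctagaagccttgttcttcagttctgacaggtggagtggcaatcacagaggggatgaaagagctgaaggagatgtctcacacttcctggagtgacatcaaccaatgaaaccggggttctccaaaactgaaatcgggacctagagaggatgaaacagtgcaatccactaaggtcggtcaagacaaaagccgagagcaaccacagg
The match in *Slfn5* starts 155 bases before its start site. Those of *Slfn8* and *Slfn9* are the same letters, TTTCGTTTTC, starting 48 and 45 bases before their start sites. *Slfn8* has a second promoter in the table, not shown, in which the same letters start 136 bases before the start.

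Total counts per library ranged from 1468478 to 9836173 (median 4188992), and a floor of 3 counts, up to which a count of 0 leaves a gene undecided, equals 0.305 to 2.04 CPM, the counts scaled by the total count of a library. Such limits cover counting error only. 3 day 12 libraries held the lowest *Slfn1* levels of that day: replicate 2 of 9-month males, and replicates 1 and 2 of 18-month females. All 3 came from the first collection day. Over 13577 genes outside the family, the 9-month male library was closer to the naive libraries of its age and sex (mean r = 0.914) than to the other day 12 libraries (0.894). None of the other 21 day 12 libraries was. The 18-month pair was closer to its own day, at 0.896 against 0.865 and 0.912 against 0.871. Values without these 3 libraries are given as descriptions, since the libraries were singled out for levels of the same kind. The library labelled 18-month female day 28 replicate 1 did not match its label in sex-linked genes and was left out, and 1 library labelled 18-month male day 28 (replicate 4) carries both day 28 and day 12 in its labels. Microglial markers were high throughout, with a summed level of 9009.6 to 60822 CPM over 10 genes, and lower at day 12 (median 15233 CPM) than in naive libraries (median 38866 CPM). The summed level of 11 T cell genes was 19.03 to 238 CPM in naive libraries (median 39.4), 10.1 to 509 at day 12 (median 154) and 24.0 to 227 at day 28 (median 94.8). That of 9 monocyte and neutrophil genes was 0.226 to 151 CPM (median 13.8), 4.66 to 954 (median 64.2) and 0.190 to 53.6 (median 8.27) in the same order, with *Ly6g* and *Retnlg* at 0 in all day 12 libraries. The T cell gene with the highest median at day 12 was *Cd3g* (32.6 CPM). Summed over 12 cell division genes the medians were 70.3, 240.5 and 32.7 CPM, over 6 NK cell genes 0.398, 20.7 and 5.36, over 6 B cell genes 108, 90.1 and 90.2, and over 8 photoreceptor genes 1734, 746 and 1376. T cells and monocytes also express Schlafen genes, and the part of such cells in the results was not tested.

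The members differed widely in abundance. Per kilobase of exon, *Slfn2* was highest, with a median of 91.4 CPM per kb over the 19 naive libraries, 264 over the 22 at day 12 and 142 over the 21 at day 28. *Slfn8* followed in naive libraries at 15.8 CPM per kb. *Slfn1*, *Slfn5* and *Slfn9* lay close together in naive libraries, at 2.04, 2.08 and 1.61 CPM per kb, and spread apart at day 12, when *Slfn1* had a median of 42.4, *Slfn5* of 12.8 and *Slfn9* of 3.59. In naive microglia *Slfn1* was thus among the rarer members, and at day 12 only *Slfn2* exceeded its median. *Slfn3* had medians of 0, 0.630 and 0.140 CPM per kb in naive, day 12 and day 28 libraries. *Slfn4* was at 0 counts in all 19 naive libraries, which allows up to the floor given above, and was above 0 in 8 of 22 libraries at day 12 and 7 of 21 at day 28, with at most 6.10 CPM.

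Some reads cannot be assigned to a single gene, be it another member or a gene outside the family. Of all 75-base windows in the transcripts of *Slfn1*, 0 occurred in the transcript of another gene. The share was 1.70% for *Slfn2*, 6.78% for *Slfn3*, 3.12% for *Slfn4*, 8.22% for *Slfn5*, 6.99% for *Slfn8* and 5.90% for *Slfn9*. *Slfn8* and *Slfn9* share such windows with each other and with the pseudogene *Slfn10-ps*, and most of those of *Slfn5* belong to its antisense neighbour *Slfn5os*. Values of those members are uncertain to that extent, since counting by strand is not stated.

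**Figure D2:**
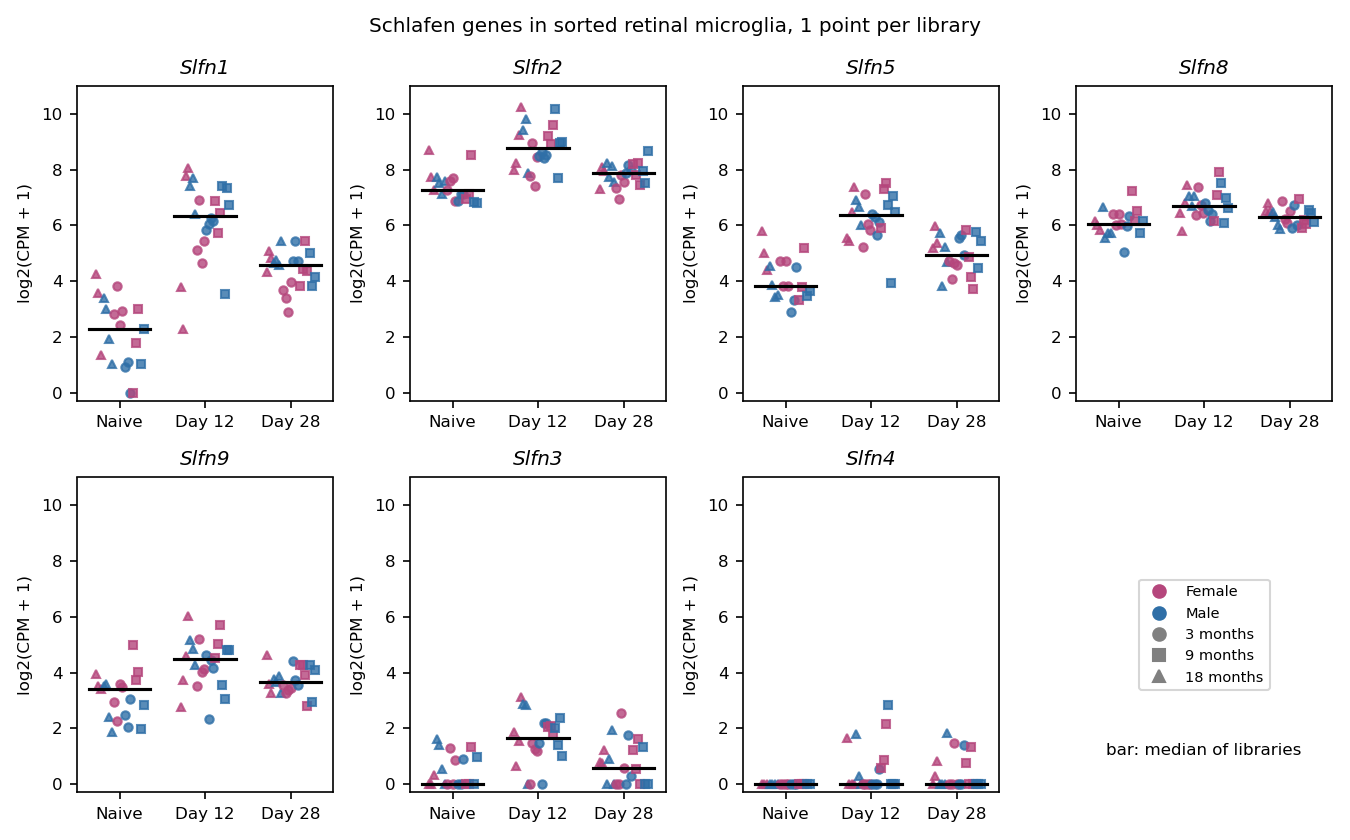
The 7 members in every library, with day on the x axis and log2(CPM + 1) on the y axis (a point is a library, colour is sex, shape is age and the bar is the median). *Slfn1* moved furthest, from a median of 3.81 CPM in naive libraries to 79.1 at day 12 and 22.8 at day 28, while *Slfn8* went from 64.7 to 104 and 77.3 CPM.

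At peak inflammation (day 12), *Slfn1* rose in both sexes at 3 and 9 months and in 18-month males. In 3-month females it was at 5.98, 13.1, 4.31 and 6.67 CPM in the naive libraries and at 33.3, 118, 24.1 and 42.2 CPM at day 12. The groups did not overlap, and the log2 fold change was 3.03 ± 0.48 (SE, adjusted p = 0.00246, edgeR). In 3-month males it was at 0.904, 1.12 and 0 CPM in naive libraries and at 55.9, 65.2, 75.1 and 69.6 CPM at day 12, a log2 fold change of 6.43 ± 0.45 (adjusted p = 1.1e-07). At day 12 the male libraries lay within the range of the female ones, while the naive male libraries all lay below the naive females. Fold changes were tested against a change of 1 log2 unit with edgeR, and adjusted p-values are taken over all genes tested. Naive libraries at 3 months also entered the contrast that selected the family, in part through low *Slfn1* in naive males. The *Slfn1* p-values at 3 months are therefore not independent of that selection. With 1 fit over all libraries, the change in 3-month females was 3.03 ± 0.77 and not called (adjusted p = 0.0799).

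At 9 months, *Slfn1* was at 0, 2.39 and 6.98 CPM in naive females and at 116, 51.8 and 86.6 CPM at day 12, with a log2 fold change of 4.80 ± 0.87 (adjusted p = 0.0108, edgeR). In 9-month males it was at 1.05 and 3.81 CPM in the 2 naive libraries, and at 171, 10.5, 162 and 105 CPM at day 12, with a log2 fold change of 5.63 ± 0.98 (adjusted p = 0.0153). Groups were separate in both sexes, although replicate 2 of the males, at 10.5 CPM, lay nearer to the naive libraries than to its own group. Without that library the change in 9-month males was 6.00. With either naive library of the 9-month males left out, the adjusted p was 0.196 (without replicate 1) or 0.102 (without replicate 2), and without replicate 2 of the 9-month naive females that of the females was 0.0521. The naive groups of that age held 3 female and 2 male libraries.

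At 18 months the levels of males were separate by day and those of females overlapped. In males *Slfn1* was at 9.45, 7.03, 2.75 and 1.04 CPM in naive libraries and at 171, 208 and 83.0 CPM at day 12, a log2 fold change of 5.10 ± 0.51 (adjusted p = 1.67e-05, edgeR). In females it was at 18.3, 10.9 and 1.52 CPM in naive libraries and at 12.8, 3.80, 219 and 266 CPM at day 12. The last 2 female libraries held the highest levels of the whole series, and the first 2 were within the naive range. The fold change was 3.99 ± 1.30 and missed the threshold (adjusted p = 0.754), and no gene at all was called higher in that comparison. Without the first 2 libraries the change was 4.90, a description that leaves out the low values, and with 1 fit over all libraries it was 3.96 ± 0.90 (adjusted p = 0.0489). The low pair came from collection day 1 and the high pair from collection day 2, and the day 12 minus naive difference of mean log2 CPM was -1.24 within the first and 5.95 within the second. In every other age and sex, and at day 28 too, the difference from naive was above 0 within each collection day, from 0.05 to 8.22.

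**Figure D3:**
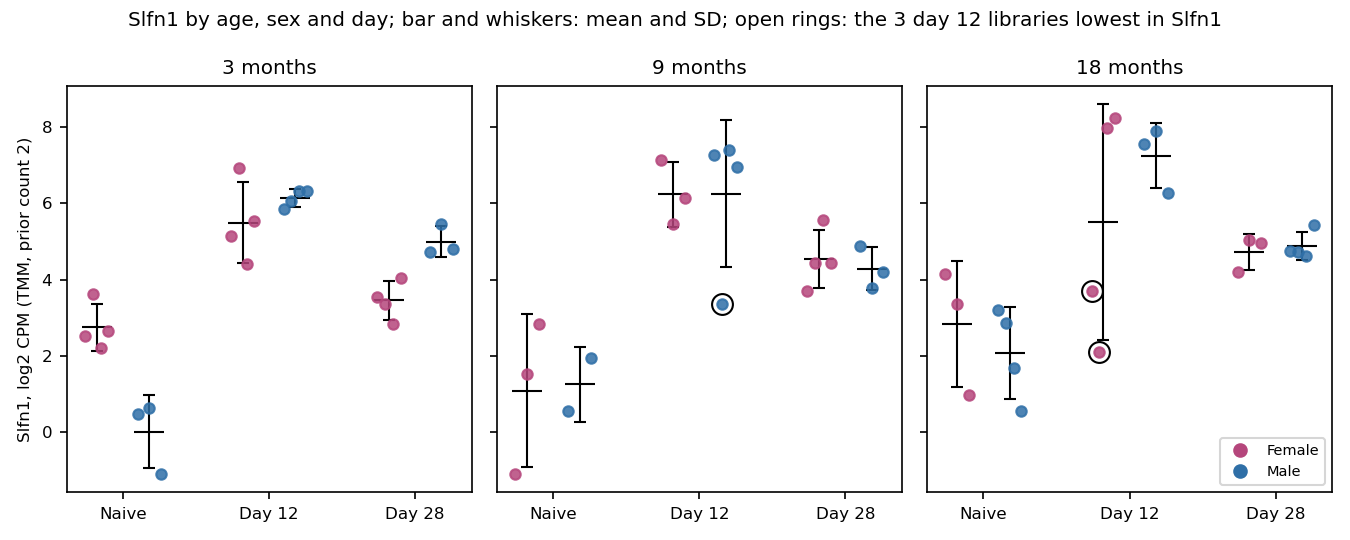
*Slfn1* in each library by age (panels), day (x axis) and sex (colour), as log2 CPM with TMM scaling and a prior count of 2 (bars and whiskers are the mean and SD of a group). Rings mark the 3 day 12 libraries lowest in *Slfn1*. The ringed libraries lie at the level of naive libraries while the 19 other day 12 libraries exceed every naive library in CPM.

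*Slfn5*, which encodes a long nuclear member, rose in 3 of the 6 day 12 comparisons. In 3-month females it went from 25.6, 13.1, 25.6 and 13.2 CPM in naive libraries to 36.5, 138, 65.6 and 56.4 CPM, a log2 fold change of 2.06 ± 0.36 (adjusted p = 0.0322, edgeR). In 3-month males it went from 6.33, 8.97 and 22.0 CPM to 84.6, 77.2, 49.6 and 67.8 CPM, a change of 2.65 ± 0.36 (adjusted p = 0.00135). In 18-month males it went from 22.5, 13.4, 9.86 and 10.4 CPM to 119, 101 and 63.1 CPM, a change of 2.94 ± 0.43 (adjusted p = 0.00181). None of these pairs of groups overlapped. The call in 3-month females was lost without replicate 2 or 4 of the naive libraries or replicate 2 of day 12, with an adjusted p of 0.101 to 0.388. In 9-month females the change was 2.66 ± 0.58 (adjusted p = 0.0644), in 9-month males 3.14 ± 0.72 (adjusted p = 0.1002) and in 18-month females 1.56 ± 0.55 (adjusted p = 1), edgeR. Without replicate 2 of day 12, the change in 9-month males was 3.49, a description, since that library was singled out above. With 1 fit over all libraries the call in 3-month females was lost (adjusted p = 0.191) and those in 9-month females and males were made (0.0315 and 0.0334). In 9-month females the change was 3.44 without replicate 3 of the naive libraries, the one at 35.2 CPM, a description that leaves out the highest naive value. Without replicate 1 of day 28 it was 2.61 (adjusted p = 0.0488, edgeR).

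*Slfn2*, the most abundant member, rose by a smaller factor. In 3-month males it went from 116, 138 and 138 CPM to 360.4, 393, 341 and 364 CPM, groups that were tight and far apart, with a log2 fold change of 1.57 ± 0.16 (adjusted p = 0.00585, edgeR). On the uncorrected counts with no batch term this change was 1.38 (adjusted p = 0.475), and with 1 fit over all libraries it was 1.57 ± 0.46 (adjusted p = 0.521). In 18-month males it went from 211, 181, 139 and 192 CPM to 679.98, 889 and 237 CPM, a change of 1.94 ± 0.37 that just missed the threshold (adjusted p = 0.0531). Replicate 3 of that day 12 group, at 237 CPM, is the lowest of its group. Without it the change was 2.36, a description that leaves out the lowest value. Without replicate 4 of day 28 the adjusted p was 0.0431 (edgeR). In 3-month females the change was 1.04 ± 0.31, in 9-month females 1.53 ± 0.40 and in 18-month females 1.47 ± 0.58, with adjusted p-values of 0.392 to 1 (edgeR). In 9-month females it was 2.20 without replicate 3 of the naive libraries, the one at 365 CPM, a description that leaves out the highest naive value. In 9-month males *Slfn2* was at 114 and 111 CPM in naive libraries and at 1162, 209, 494 and 514 CPM at day 12, a change of 2.50 ± 0.60 (adjusted p = 0.152). The lowest of those is replicate 2, and without it the change was 2.79, a description that leaves out the lowest value.

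The other members did not pass the test at day 12 in any age or sex. *Slfn9* had log2 fold changes of 0.77 to 2.19 over the 6 comparisons, and its smallest adjusted p was 0.0686 (edgeR), in 18-month males. *Slfn8* had changes of 0.40 to 1.12, with adjusted p-values of 0.922 to 1. In 18-month males, *Slfn8* was at 101, 45.8, 51.3 and 52.1 CPM in naive libraries and at 132, 103 and 131 CPM at day 12, groups that did not overlap but lay close to each other. *Slfn3* was abundant enough to be tested in 4 of the 6 comparisons, with changes of 2.22 to 3.34 and adjusted p-values of 0.760 to 1. *Slfn4* was tested in none.

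Over the 6 day 12 comparisons, 9 member calls were thus made in 34 tests, all of them higher, and at an unadjusted p under 0.05 there were 18. In 3-month females 2 of 5 tested members were called, against 1.67% of all genes tested in that direction. In 3-month males it was 3 of 6 against 2.77%, in 9-month females 1 of 6 against 1.77%, in 9-month males 1 of 6 against 0.774%, in 18-month females 0 of 5 against 0% and in 18-month males 2 of 6 against 2.86%. The 18 at an unadjusted p were, in the same order, 2 (against 4.35% of all genes), 4 (5.46%), 3 (6.21%), 4 (5.11%), 1 (3.02%) and 4 (6.37%). Each of the 34 fold changes was above 0. The calls at 3 months rest on naive libraries that entered the contrast that selected the family. Tested members are those that passed the filter on low counts, which a gene can pass through its day 12 libraries alone. In bulk samples, a change in the share of cells that express a gene and a change in its RNA per cell cannot be told apart.

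**Figure D4:**
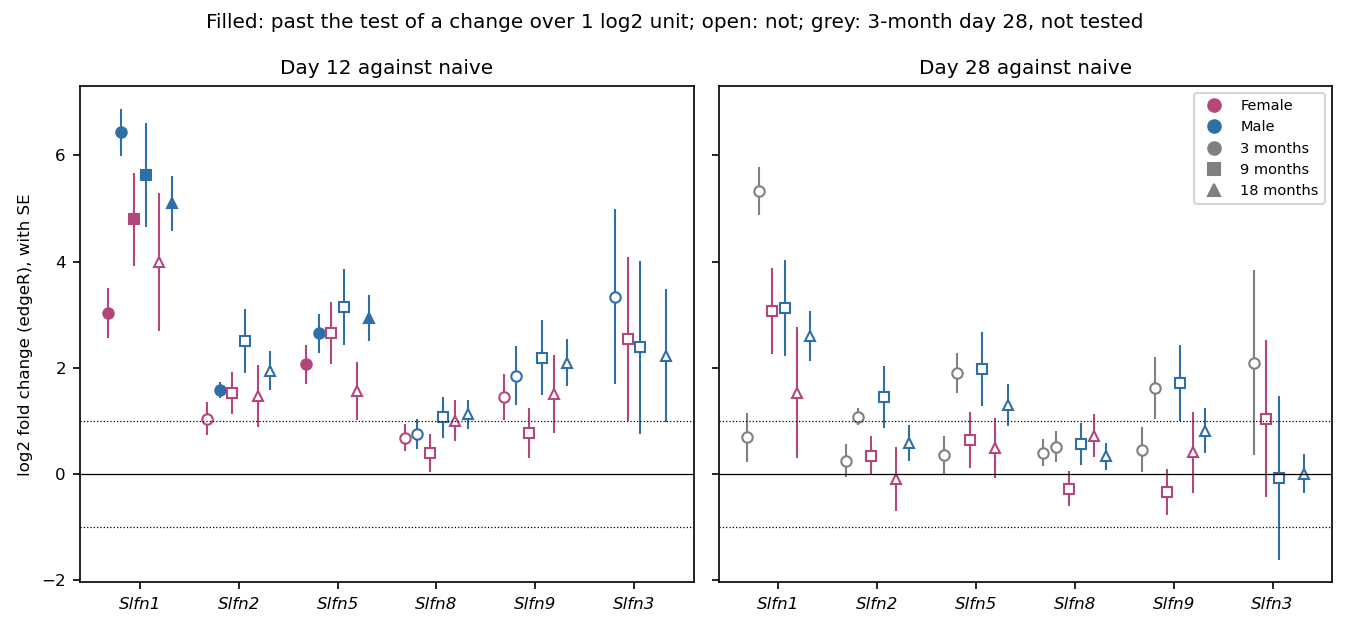
Log2 fold change against naive with its SE (y axis) for the members tested (x axis), at day 12 (left) and day 28 (right). Colour is sex, shape is age, filled symbols passed the test against a change of 1 log2 unit (dotted lines) and grey symbols are the 3-month day 28 values that were not tested. The 9 filled symbols are all at day 12, where *Slfn1* ranges from 3.03 to 6.43 and *Slfn8* from 0.40 to 1.12.

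At late inflammation (day 28), *Slfn1* at 3 months is the pattern that selected the family. Female libraries were at 11.8, 9.48, 6.33 and 14.8 CPM, overlapping the naive females, and male libraries were at 25.2, 42.9 and 25.1 CPM, all above the naive males. The log2 fold change was 0.69 ± 0.46 in females and 5.33 ± 0.46 in males, and the male minus female difference of the changes was 4.66 ± 0.79. That difference combines a higher day 28 level in males (mean 31.0 CPM against 10.6 in females) with a lower naive level (mean 0.675 CPM against 7.52). With naive libraries at 0 to 5 counts in males and 18 to 55 in females, the naive side of it rests on few reads. The other members had male minus female differences of 0.11 to 1.53 in the same contrast, *Slfn5* being the largest at 1.53 ± 0.56.

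At 9 and 18 months, where other libraries were used, no member passed the test at day 28. *Slfn1* was at 13.2, 20.6, 42.6 and 19.7 CPM in 9-month females at day 28, with a log2 fold change of 3.06 ± 0.81 (adjusted p = 0.385, edgeR). In 9-month males it was at 31.3, 13.3 and 16.5 CPM, with a change of 3.12 ± 0.90 (adjusted p = 0.740). In 18-month females it was at 19.1, 33.1 and 27.6 CPM, with a change of 1.53 ± 1.24 (adjusted p = 1). In 18-month males it was at 24.1, 26.1, 22.8 and 42.2 CPM, with a change of 2.60 ± 0.47 (adjusted p = 0.0525). In 18-month females the lowest day 28 library, at 19.1 CPM, was near the highest naive one at 18.3 CPM. The adjusted p (edgeR) was nearest to the threshold in 18-month males. There it was 0.0262 without replicate 3 of day 12. Without replicate 1 of the naive libraries, at 9.45 CPM, the change was 2.98, a description that leaves out the highest naive value. Over all alternatives the change was 2.29 to 2.98, with an adjusted p of 0.002 to 0.528 (edgeR or DESeq2). The day 28 library at 42.2 CPM is the one with both day 28 and day 12 in its labels.

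*Slfn2* at day 28 had log2 fold changes of 0.34 ± 0.37 in 9-month females, 1.45 ± 0.59 in 9-month males, -0.10 ± 0.60 in 18-month females and 0.57 ± 0.34 in 18-month males. *Slfn5* had changes of 0.63 ± 0.53, 1.98 ± 0.70, 0.49 ± 0.57 and 1.29 ± 0.40 in the same order. The adjusted p was 1 for all 8 values (edgeR). *Slfn8* ranged from -0.28 to 0.72, *Slfn9* from -0.34 to 1.71 and *Slfn3*, tested in 3 of the 4 comparisons, from -0.079 to 1.03, and *Slfn4* was tested in none. The number of members called higher was 0 of 6 in 9-month females, against 0.426% of all genes, 0 of 6 in 9-month males against 0.12%, 0 of 5 in 18-month females against 0% and 0 of 6 in 18-month males against 0.553%. With edgeR 4 of these 23 tests had an unadjusted p under 0.05, which in the same order were 1 (against 2.77% of all genes), 2 (2.74%), 0 (2.19%) and 1 (2.4%). DESeq2 also called 0 members, against 0.64%, 0.295%, 0.0719% and 0.509% of all genes.

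From day 12 to day 28, with the sexes averaged, *Slfn1* fell by 2.09 ± 0.51 on the log2 scale at 9 months (adjusted p = 0.0159, edgeR), *Slfn5* fell by 1.57 ± 0.40 (adjusted p = 0.0211) and *Slfn2* fell by 1.09 ± 0.31 (adjusted p = 0.0407). The day 12 libraries are those of the comparison with naive. *Slfn8*, at -0.56 ± 0.24, and *Slfn9*, at -0.77 ± 0.37, did not pass (adjusted p = 0.173 and 0.2499), nor did the sparse *Slfn3* at -1.94 ± 1.06 and *Slfn4* at -3.38 ± 1.60 (adjusted p = 0.321 and 0.243). At 9 months 3 of 7 members were called lower, against 3.46% of all genes tested, and 5 had an unadjusted p under 0.05, against 10.6%, while DESeq2 called 3, against 5.37%. At 18 months the changes were -2.47 ± 0.65 for *Slfn1*, -1.47 ± 0.36 for *Slfn2* and -1.35 ± 0.36 for *Slfn5*, and each missed the threshold, with adjusted p-values of 0.0588, 0.0504 and 0.0597 (edgeR). *Slfn3* was at -2.07, *Slfn8* at -0.53 and *Slfn9* at -1.18 there, with adjusted p-values of 0.329, 0.313 and 0.190, and *Slfn4* was too low to test. There 0 of 6 members were called, against 0.823% of all genes, although all 6 had an unadjusted p under 0.05, against 8.83%, and DESeq2 called 3, against 2.77%. Whether the ages differed in this fall was not tested.

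The count of 3 over the 2 ages moved with single libraries. It was 6 without replicate 1 or 2 of 18-month day 12 females, without replicate 1 of 18-month naive females, or without replicate 3 of 18-month day 12 males. It was 0 without replicate 3 of 9-month day 28 males and 1 without replicate 3 of 9-month day 12 females. The fall of *Slfn2* at 9 months was the least stable: it lost its call without any 1 of 9 libraries of that age, while its change stayed between -1.12 and -0.88. The fall of *Slfn5* also lost its call without replicate 2 of the 9-month day 12 females (adjusted p = 0.0527). That of *Slfn1* lost it without replicate 3 or 4 of the 9-month day 28 males (adjusted p = 0.0633 and 0.0515). Without the 3 day 12 libraries lowest in *Slfn1*, a choice that raises the day 12 levels, the changes of *Slfn8* and *Slfn9* at 18 months were -0.78 and -1.56. The direction was downward for every member tested at both ages.

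Whether the sexes differed in their change from naive was tested at day 12 at the 3 ages and at day 28 at 9 and 18 months. At day 12 in 3-month mice the male change of *Slfn1* exceeded the female one by 3.42 ± 0.77, which is given as a description, since the day 12 levels of the sexes overlapped and the naive libraries are those of the contrast that selected the family. At 9 months the difference was 0.83 ± 1.23 at day 12 and 0.03 ± 1.14 at day 28, and at 18 months it was 1.12 ± 1.31 and 1.07 ± 1.34, with adjusted p-values of 0.890 to 1. The 95% interval at day 28 was -2.20 to 2.27 at 9 months and -1.56 to 3.70 at 18 months, so differences of up to 2.27 and 3.70 lie within them. The 4.66 seen at 3 months is the value that selected the family and has an error of its own. It cannot be set against these intervals as a fixed value. Whether the sex difference itself differed between ages was not tested.

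For *Slfn2* the differences were 0.53 ± 0.39, 0.98 ± 0.69 and 0.49 ± 0.70 at day 12 at 3, 9 and 18 months, and 1.08 ± 0.69 and 0.68 ± 0.71 at day 28 at 9 and 18 months. For *Slfn5* they were 0.56 ± 0.53, 0.49 ± 0.89 and 1.39 ± 0.71, and 1.33 ± 0.90 and 0.82 ± 0.72. No adjusted p of these was under 0.711 (edgeR). The values ranged from -2.93 to 2.22 for *Slfn3*, from -0.38 to 0.83 for *Slfn8* and from 0.40 to 2.04 for *Slfn9*, with adjusted p-values of 0.803 to 1, and *Slfn4* was tested at 9 months alone, on few reads. Members called numbered 0 of the 5 others at 3 months at day 12 (against 0.0583% of all genes), 0 of 7 at 9 months at day 12 (0.00809%) and day 28 (0%), and 0 of 6 at 18 months at day 12 (0%) and day 28 (0%). At an unadjusted p under 0.05 there was 1 of 31, *Slfn9* at day 28 of 9 months. The share of all genes at that p was 9.38% at 3 months, 4.71% and 4.97% at day 12 and day 28 of 9 months, and 6.97% and 4.54% at 18 months. DESeq2 called 0 of them, against 0.423%, 0.0405%, 0.0648%, 0.277% and 0.0252% of all genes in the same order.

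Levels of *Slfn1* after injection were also compared between the sexes directly at 9 and 18 months. At day 28 the male minus female difference of mean log2 CPM, averaged over the 2 ages, was -0.05 (7 libraries of each sex, p = 0.878 by an exact permutation test within age, two-sided). At day 12 it was 0.87 (7 of each sex, exact permutation p = 0.429). Adjusted over these 2 tests, the p-values were 0.878 and 0.859 (permutation), and the smallest p that 1225 permutations can give is 0.000816. Within age and collection day, the day 28 difference was 0.23 and the day 12 difference 0.92. Without the 3 day 12 libraries lowest in *Slfn1*, the day 12 difference was 0.05.

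Ages were compared with 3 months at day 12, where no library of the contrast that selected the family enters, and no member was called in these 4 comparisons. *Slfn1* had log2 changes of 0.61 to 1.42 (adjusted p of 0.5201 to 1, edgeR), *Slfn2* of 0.58 to 1.11 (0.368 to 1) and *Slfn5* of 0.23 to 0.65 (0.709 to 1). *Slfn8* had changes of 0.13 to 0.38 (0.870 to 1), *Slfn9* of 0.12 to 0.69 (0.670 to 1) and *Slfn3* of -0.00995 to 1.62 (0.462 to 1), while *Slfn4* was tested in none. Day 12 females of 18 months, the group with the widest spread of *Slfn1*, differed from 3 months by 1.42 ± 0.91 for *Slfn1* and 1.11 ± 0.50 for *Slfn2*, and without the low pair by 2.32 and 1.72. At 9 and 18 months, 0 members were called in females against 0.42% and 0.0625% of all genes, and 0 in males against 0% and 0%. At an unadjusted p under 0.05 there were 2 of 24 member tests, 0 and 1 in females (against 10.8% and 13.2% of all genes) and 0 and 1 in males (4.17% and 3.96%). DESeq2 called 0, against 3% and 2.41% in females and 0.0179% and 0.214% in males.

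Naive and day 28 libraries of 3 months entered the contrast that selected the family, so their differences from the other ages are descriptions. *Slfn1* in day 28 females was higher than at 3 months by 1.20 ± 0.37 at 9 months and by 1.29 ± 0.39 at 18 months. Over the 8 comparisons, *Slfn1* ranged from -1.20 to 2.67, *Slfn2* from -0.32 to 0.67, *Slfn5* from -0.42 to 1.02, *Slfn8* from -0.20 to 0.52 and *Slfn9* from -0.30 to 1.32.

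Ordered by mean log2 CPM, the 5 groups of day 12 in which *Slfn1* was called, together with 18-month females at day 12, made up the upper end, the day 28 groups the middle and the naive groups the lower end. Of the 17 steps between neighbours in that order, 16 were smaller than the pooled SD of the 2 groups. For *Slfn5* and *Slfn8* it was 17 of 17, and for *Slfn2* 16 of 17. Single steps in these orders are thus within the spread of libraries.

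Genes outside the family were ranked by their likeness to each member, over 62 libraries and 13577 genes, as Pearson's r of log2 CPM. These libraries share days, depth and collection, so the values are descriptions. For *Slfn1* the 5 nearest were *Tgtp2* (r = 0.934), an interferon-induced GTPase, *Ifi211* (0.932), *Ifi204* (0.925), *Gm4951* (0.912) and *Gbp2* (0.910), a guanylate-binding protein. With each group's mean removed, they were *Tgtp2* (0.819), *Ifi211* (0.807), *Irgm1* (0.805), an immunity-related GTPase, *Fgl2* (0.805) and *Gm12250* (0.804). *Tgtp2* and *Ifi211* were thus among the nearest by either measure.

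For *Slfn2* the nearest were *Xaf1* (0.918), *Ifitm3* (0.900) and *Ifi27l2a* (0.892), and with group means removed *Bst2* (0.885), which encodes tetherin, *Xaf1* (0.860) and *Ifitm3* (0.816). For *Slfn5* they were *Trim30a* (0.916), *Ifi206* (0.894) and *Ifi207* (0.893), and then *Trim30a* (0.828), *Ifi27l2a* (0.817) and *Xaf1* (0.754). For *Slfn8* they were *Oas2* (0.792), *Stat2* (0.791) and *Ifi207* (0.781), and the same 3 with group means removed, at 0.709, 0.679 and 0.664. For *Slfn9* they were *Ifi207* (0.772), *Ms4a4c* (0.744) and *Parp14* (0.742), and then *Sap30* (0.701), *Parp14* (0.632) and *Dnmt1* (0.617). *Slfn3* and *Slfn4* had nearest r of 0.655 and 0.586, in counts too sparse to rank. Between members, r was highest for *Slfn2* and *Slfn5* at 0.859 and was 0.830 for *Slfn1* and *Slfn5*.

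Other genes of the pathway were read beside the family. Of 19 antiviral effectors that act on RNA or translation, 3, 9, 3, 1, 0 and 11 were called higher at day 12 in 3-month females and males, 9-month females and males, and 18-month females and males, with 0 lower. Their median log2 fold changes were 1.22 to 2.46, where the median of all genes was -0.01 to 0.11. The 2 largest changes in 3-month males were *Oas1g* (4.34 ± 0.47) and *Oas2* (3.69 ± 0.48), both sensors of double-stranded RNA that feed RNase L. At day 28, 0 of 76 tests at 9 and 18 months were called, and from day 12 to day 28 9 effectors fell at 9 months and 6 at 18 months, *Ifit2* by 2.15 ± 0.35 and *Isg20* by 2.23 ± 0.48 among them.

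Of 13 interferon signalling genes, 2, 4, 3, 1, 0 and 4 were called higher at day 12 in the same order, with 0 lower. At day 28, 1 of 52 tests at 9 and 18 months was called higher. From day 12 to day 28, 4 of the 13 fell at 9 months and 1 at 18 months. The comparison of the family with these lists is by count only.

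Across libraries, the mean log2 CPM of the 19 effectors had r of 0.904 with *Slfn1*, 0.858 with *Slfn2*, 0.8996 with *Slfn5* and 0.758 with *Slfn8* over 62 libraries, and with group means removed 0.809, 0.694, 0.728 and 0.624. With the 11 T cell genes, r was 0.766 for *Slfn1* and 0.4003 with group means removed, and with the monocyte and neutrophil genes 0.707 and 0.635. With the microglial markers it was -0.841 and -0.588. In the lowest day 12 library of 9-month males, the T cell genes summed to 144 CPM, near the median of its group at 155, while *Slfn1* was at 10.5 CPM and the effectors summed to 620.5 CPM, the lowest of day 12. In the 2 low libraries of 18-month females, the T cell genes summed to 10.1 and 19.8 CPM and the effectors to 935 and 752 CPM. The monocyte and neutrophil genes summed to 6.09 to 98.9 CPM over all day 12 libraries of 9-month males (median 72.8). Over those of 18-month females they summed to 7.22 to 954 CPM (median 83.4). The part of other cells in the low libraries was not tested.

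**Figure D5:**
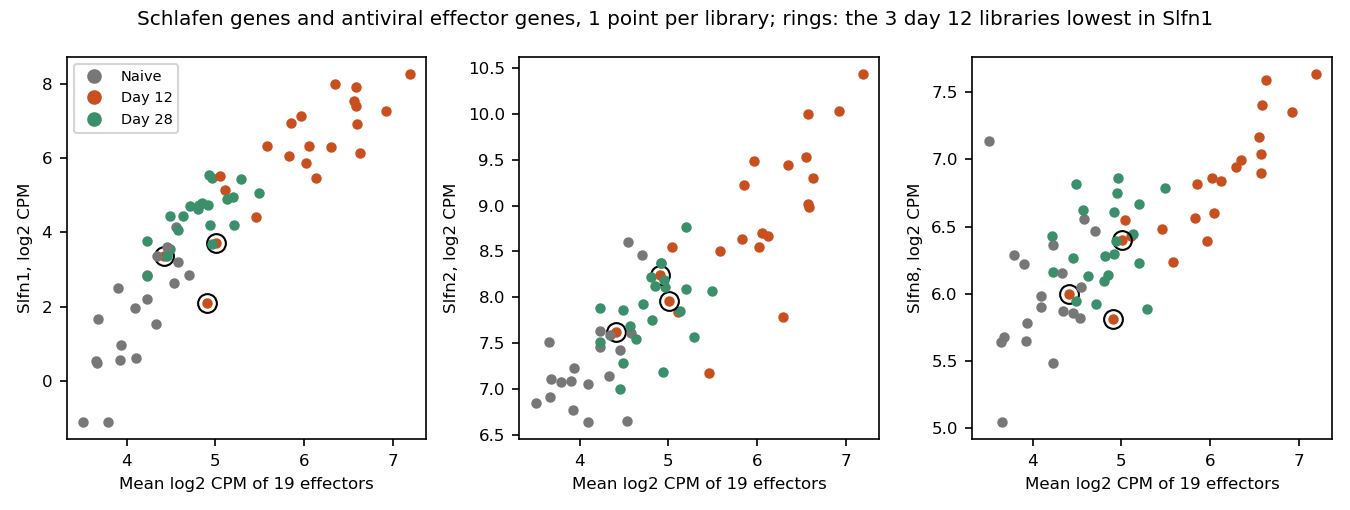
Log2 CPM of *Slfn1*, *Slfn2* and *Slfn8* (y axis, 1 panel each) against the mean log2 CPM of 19 antiviral effectors (x axis), with a point per library, colour for day and rings around the 3 day 12 libraries lowest in *Slfn1*. Across 62 libraries r is 0.904, 0.858 and 0.758, and the ringed day 12 libraries lie among naive and day 28 libraries on both axes.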

How the data were processed

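RNA from sorted microglia was amplified (SMART-Seq v4) and sequenced as single reads. Per the labels and the study's methods, the authors made reads with bcl2fastq (version 2.20), mapped them with STAR (2.7.8a) to mm10, counted reads per gene with featureCounts on refGene, and removed the collection day with ComBat_seq in R (4.2.2). Whether counting used strand is not given in the sources used here. The deposited values used here are the corrected read counts, with the uncorrected counts as an alternative. Correction can move low counts, and whole numbers were kept.

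Of 64 libraries in the uncorrected table and 63 in the corrected one, 62 were used. The library labelled 18-month female day 28 replicate 1 was left out by rule, and the one labelled 9-month male day 28 replicate 1 was not used either. Neither matched its label in sex-linked genes. No pair of libraries within a group was identical (largest r of 79 pairs, 0.978). Littermates and shared collection days mean that p-values measure the spread between these libraries.

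CPM was computed from total counts. Tests used edgeR (4.0.16) quasi-likelihood fits with TMM and filterByExpr in R (4.3.3), checked on simulated data. Within each age and sex, a day was called different from naive where glmTreat placed its change beyond 1 log2 unit (Benjamini-Hochberg adjusted p under 0.05). Day 28 was compared with day 12 within each age, with both sexes weighted equally (0.05), and sex by day and age contrasts used a threshold of 0.1. A standard error is the log2 fold change divided by the square root of F, and 95% intervals are 1.96 standard errors either side. Correlations and the exact permutation tests used log2 CPM with a prior count of 2. All 7 members are given in each comparison, with fold changes for those past the threshold and for *Slfn1*, *Slfn2* and *Slfn5* throughout (as ranges across ages). The 5 genes most like *Slfn1* and the 3 most like each other member were named. Members and lists were chosen with earlier results of these data known. *Trbc2*, of the T cell list, was not analysed here. The values of 1 gene of the interferon signalling list are not reported here. Alternatives were DESeq2 (1.42.0), its size factors, no filter, uncorrected counts, 1 fit over all libraries, a replicate block, the plain quasi-likelihood test, changed placement of doubtful libraries, and leaving out each library. Leaving out the 3 day 12 libraries lowest in *Slfn1* was added after the data were seen.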

Additional observations from a re-analysis of the deposited data

Results flagged for a closer look

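In 3 of 54 sets of values, each of 1 member in 1 group of 4 libraries, 1 value stood far from the rest, where chance gives about 1 in 20. *Slfn1* was at 42.2 CPM in replicate 4 of 18-month males at day 28, the library with both day 28 and day 12 in its labels, against 22.8 to 26.1 CPM in the other 3. *Slfn3* was at 4.80 CPM in replicate 3 of 3-month females at day 28, where the next library was at 0.478 CPM. *Slfn8* was at 101 CPM in replicate 1 of 18-month naive males, against 45.8 to 52.1 CPM in the others.

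The change of *Slfn1* from naive to day 28 at 3 months differed between the sexes by 4.66 log2 units (male minus female), every male library having moved up from the naive males while females overlapped. This is the contrast that selected the family, so it was not tested here.

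In the library labelled 18-month female day 28 replicate 1, which entered no comparison, *Slfn1* was at 222.9 CPM in the uncorrected counts, above the highest naive library at 18.6 CPM. *Slfn2* was at 555 CPM and *Slfn5* at 159.8 CPM there. Its *Xist* was at 0 and its *Ddx3y*, of the Y chromosome, at 107 CPM, while the other unused library, labelled 9-month male day 28 replicate 1, had *Xist* at 255 CPM, *Ddx3y* at 0 and *Slfn1* at 17.8 CPM. Whether these 2 labels were exchanged was not tested, so the age and sex behind each value are uncertain.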

How the results depend on the processing

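The 9 member calls at day 12 were 8 with DESeq2, 7 with the replicate block, 13 with no filter on low counts, 12 without the 3 day 12 libraries lowest in *Slfn1* (a choice that favours calls), 19 with the plain quasi-likelihood test, and 8 to 11 when each library was left out. With 1 fit over all libraries they were also 9, of which 3 were others: *Slfn1* and *Slfn5* in 3-month females and *Slfn2* in 3-month males were lost, and *Slfn5* at 9 months in both sexes and *Slfn1* in 18-month females were gained. The 0 calls at day 28 at 9 and 18 months became 3 with no filter, 1 with the replicate block, 1 with the plain test, and 0 to 1 when each library was left out (1 without replicate 1 of 18-month naive males or replicate 3 of 18-month day 12 males). The 3 falls from day 12 to day 28 became 6 with DESeq2, 6 with no filter, 6 with 1 fit over all libraries, 8 without those 3 libraries, 0 with the replicate block, and 0 to 6 when each library was left out. Sex by day calls stayed at 0 apart from *Slfn1* at 3 months and day 12, given above as a description, whose call depended on the setting. The 0 age calls at day 12 became 2 without those 3 libraries, *Slfn1* and *Slfn2* in 18-month females, and stayed 0 when each library was left out. Age calls made by other settings were all in day 28 females against 3 months. They use libraries of the contrast that selected the family and are not counted. The share of all genes called is not given for these settings, apart from DESeq2 in some comparisons above. The counts thus describe how calls moved and are not a result about the members. The cause of these moves was not tested. Replicate numbers did not pair the samples: residuals of libraries with the same number in different groups had a mean correlation of -0.01, against 0.00408 for the rest. The difference of *Slfn1* between the sexes at day 28 turned to 0.23 within age and collection day and ranged from -0.20 to 0.12 when each library was left out, and that at day 12 from 0.31 to 1.35. Without those 3 libraries, the sex by day value of *Slfn2* at 18 months and day 12 turned to -0.19. With uncorrected counts and no batch term, the day 28 change of *Slfn2* in 18-month females turned to 0.0589. With the library labelled 18-month female day 28 replicate 1 included, that change was 0.51, and the sex by day values at 18 months and day 28 were -0.35 for *Slfn1* and -0.0606 for *Slfn5*. With the replicate block, the sex by day value of *Slfn1* at 9 months and day 28 was -0.24, and the block also ended the calls of *Slfn5* in 3-month females and *Slfn1* in 9-month males at day 12. When each library was left out, sex by day values spanned 0 for *Slfn1* at 9 months (-0.46 to 1.99 at day 12, -1.24 to 1.20 at day 28), *Slfn5* at 9 months and day 12 (-0.31 to 0.85) and *Slfn2* at 18 months and day 12 (-0.0218 to 1.16), as did the day 28 change of *Slfn2* in 18-month females (-0.36 to 0.40). Depth limits *Slfn3*, *Slfn4* and naive *Slfn1*, which rest on few reads.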
